A study of Homo sapiens with 22 samples.

Results

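The genes described here make the lysosome acidic, fill it with enzymes and feed it by autophagy. A list of 51 gene symbols was matched, by current or older symbol, to a deposited expression table of 17165 genes, and 50 of the 51 were found. ATP6V0C, a membrane subunit of the proton pump, was not analysed here. The 50 comprised 15 proton pump genes, 16 genes of lysosomal proteins and 19 autophagy genes, and all 50 passed the filter on low values (at least 1 CPM, the read count scaled to a common library size, in at least 2 libraries), as did 15485 genes in all.

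The data are polyadenylated RNA from PC9, a human lung adenocarcinoma line that depends on a mutated epidermal growth factor receptor (EGFR), and from 4 derivatives of it. The 22 libraries form 11 groups of 2. Parental PC9 cells were given vehicle, gefitinib (a reversible EGFR inhibitor) or WZ4002 (a covalent inhibitor designed for mutated EGFR). PC9-GR2 and PC9-GR3, known from the study as gefitinib-resistant lines, were given vehicle or WZ4002. Gefitinib-tolerant PC9 cells were given vehicle or gefitinib, and WZ4002-tolerant PC9 cells vehicle or WZ4002. Cells were harvested after 24 h, and the labels give 1 mM for each inhibitor, a unit that is in doubt. The labels do not say whether GR2 and GR3 are single clones. Nor do they tell whether the 2 libraries of a group had a culture each, so the p-values measure only how far libraries differ, which may be technical. In RNA from whole cultures, fewer cells of a type and less RNA per cell cannot be told apart.

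The vacuolar proton pump (V-ATPase) couples ATP hydrolysis in its cytosolic V1 sector to proton transport through its membrane V0 sector, and the acid it makes is what lysosomal hydrolases need. Autophagy encloses cytoplasm in a double membrane coated with lipid-linked LC3 and GABARAP proteins and delivers it to the lysosome. TFEB and TFE3 are transcription factors that bind an E-box in many lysosomal promoters and are held in the cytoplasm when mTORC1 kinase is active, so their own transcript level is not what is known to control them. FOXO factors, which growth factor signalling through AKT keeps out of the nucleus, are known to act on several autophagy genes.

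Promoters from RefSeq (build GRCh38.p14, 250 bases before to 50 after the gene start) were at hand for 41 of the 51 symbols. They were searched on both strands for the E-box letters TCACGTG, in which the shorter CACGTG is nested, and for the FOXO letters GTAAACA. The box TCACGTG was present in 10 of the 41 (24.4%), against 3.82% of all 27305 promoters and 5.84% of the 10718 promoters of genes kept for testing. By group it was in 3 of 11 proton pump promoters, 6 of 12 lysosomal and 1 of 18 autophagy promoters. The stretches below hold those boxes in capitals, written 5′ to 3′ on the gene's own strand, because they show which members carry the sequence and how many copies lie before the start.
ATP6V1G1, chr9:114587698-114587729, plus strand: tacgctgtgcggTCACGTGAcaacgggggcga
ATP6V0B, chr1:43974890-43974938, plus strand: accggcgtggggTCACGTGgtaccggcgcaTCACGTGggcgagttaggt
ATP6V0D1, chr16:67481198-67481229, minus strand: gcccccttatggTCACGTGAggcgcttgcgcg
LAMP1, chr13:113297034-113297229, plus strand: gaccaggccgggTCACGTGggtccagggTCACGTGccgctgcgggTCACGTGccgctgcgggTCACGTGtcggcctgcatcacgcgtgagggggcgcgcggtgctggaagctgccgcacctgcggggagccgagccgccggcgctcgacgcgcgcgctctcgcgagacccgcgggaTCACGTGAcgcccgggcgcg
CTSA, chr20:45891280-45891328, plus strand: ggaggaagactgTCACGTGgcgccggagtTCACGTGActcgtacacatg
CTSD, chr11:1763956-1763986, minus strand: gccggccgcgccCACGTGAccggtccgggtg
GAA, chr17:80101492-80101568, plus strand: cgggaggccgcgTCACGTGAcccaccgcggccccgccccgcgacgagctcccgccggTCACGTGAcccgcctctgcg
NEU1, chr6:31862930-31862960, minus strand: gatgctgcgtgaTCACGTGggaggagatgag
MCOLN1, chr19:7522570-7522623, plus strand: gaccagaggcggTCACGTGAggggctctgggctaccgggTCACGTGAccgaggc
ATG14, chr14:55411833-55411863, minus strand: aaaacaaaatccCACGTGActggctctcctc

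Of these 10 genes, LAMP1 held the most boxes, with 6 in its window, 5 of them in the stretch shown. The window of ATP6V1B1, the member with the largest response to drug in all 6 drug and vehicle comparisons, held no CACGTG. It held the FOXO letters 1 time, read on the other strand and set in capitals in its 250 bases before the start, which are shown whole to give the context of the most changed member.
ATP6V1B1, chr2:70935650-70935899, plus strand: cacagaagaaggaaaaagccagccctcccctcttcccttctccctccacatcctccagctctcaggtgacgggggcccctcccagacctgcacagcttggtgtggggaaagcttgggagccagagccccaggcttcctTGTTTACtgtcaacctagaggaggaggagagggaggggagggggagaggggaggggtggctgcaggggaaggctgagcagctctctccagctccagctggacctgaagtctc
CTSL, chr9:87725955-87725985, plus strand: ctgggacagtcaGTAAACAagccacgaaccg
CTSL was the other member with the FOXO letters, so 2 of 41 windows (4.88%) held them, against 3.41% of all promoters and 2.34% of those of genes kept for testing. Of the 11 matched members that were higher in all 6 responses described below, 3 held TCACGTG (27.3%), and of the 8 matched members higher in none, 1 did (12.5%), which was ATP6V0B. The box was also in ATP6V1G1, ATP6V0D1, LAMP1, CTSD, NEU1 and MCOLN1, which were higher in 1 to 5 responses. A link between box and response was not tested. These are matches of letters in short windows and not measured binding.

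Libraries held about 23600000 to 49600000 reads, estimated from the step between CPM values by a rule that keeps the lower of 2 possible depths. DUSP6, a transcript of the ERK pathway that checks drug action, lay at 17.7 to 276 CPM in the 10 vehicle libraries and at 0.08 to 4.18 CPM in the 12 drug libraries. EGFR itself lay at 554 to 1543 CPM with vehicle and 373 to 1281 CPM with drug. The 6 epithelial markers listed summed to 1950 to 3533 CPM with vehicle and 2939 to 7198 CPM with drug, and NKX2-1, an alveolar marker, was near 0 (at most 1.7 CPM in any library). KRT8 and KRT19 made up most of that sum, and not every marker rose. The mean of EPCAM was lower with drug in every population, from 384.5 to 192.6 CPM in GR2 and from 369.9 to 282.6 CPM in WZ4002-tolerant cells. Means of KRT18 in both tolerant populations and of CDH1 in parental cells with WZ4002 were lower too. Of 10 markers of leukocytes, endothelium and fibroblasts 6 were in the table (the others were not analysed here), and they summed to 14.8 to 28.2 CPM with vehicle and 16.3 to 60.5 CPM with drug. CD14 and CSF1R, markers of myeloid cells whose lysosomes are rich in several of these proteins, reached at most 0.71 and 1.58 CPM with vehicle and 7.22 and 10.1 CPM with drug, and the part of such markers in the results was not tested. Means of CDH5, an endothelial marker, fell in parental cells from 14.75 to 3.355 CPM with gefitinib and 2.365 with WZ4002. They fell in GR2 (13.41 to 7.575) and GR3 (12.03 to 6.71 CPM) and rose in gefitinib-tolerant (10.07 to 29.66) and WZ4002-tolerant cells (13.01 to 25.59 CPM). Means of COL1A1, a fibroblast marker, were lower with drug in parental cells and higher in the other populations. The 2 vehicle libraries of GR2 were the closest pair, with a median SD of 0.0556 on the log2 scale, and those of GR3 the farthest apart, with 0.181.

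With an EGFR inhibitor, more of these genes were higher than lower than with vehicle in every population, and whether this came through EGFR was not tested. Differences are given on the scale of log2(CPM + 1) with adjusted p from limma and a threshold of 0.05. In parental cells, gefitinib raised 31 of the 50 members and lowered 4, where 23.5% of all tested genes rose and 21.8% fell. WZ4002 raised 31 and lowered 3 in parental cells, where 25.1% of all genes rose and 22.3% fell. The median member difference was 0.51 for gefitinib and 0.52 for WZ4002, and that of all tested genes was 0.04 for each. Both comparisons share the parental vehicle libraries. The list was chosen with earlier results of these data known, so its shares beside those of all genes are no independent test.

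In GR2 cells, WZ4002 raised 25 members and lowered 10, with 27.4% of all genes rising and 28.3% falling. In GR3 cells, 20 members rose and 2 fell with WZ4002, against 12.1% and 9.87% of all genes. In gefitinib-tolerant cells, 20 rose and 1 fell with gefitinib, against 15.2% and 13.6%. In WZ4002-tolerant cells, 25 rose and 1 fell with WZ4002, against 17% and 15.6%. The median member difference was 0.32 in GR2, 0.32 in GR3, 0.34 in gefitinib-tolerant and 0.48 in WZ4002-tolerant cells, and that of all tested genes lay between 0.01 and 0.03 in these 4. The counts in 3 populations rest on single libraries. Without GR3 vehicle replicate 1, 9 members passed in GR3, and without GR3 WZ4002 replicate 2, 7 did. In gefitinib-tolerant cells 4 passed without vehicle replicate 1 and 4 without gefitinib replicate 2, and in WZ4002-tolerant cells 14 passed without vehicle replicate 1. A fit to the 2 groups of the comparison alone gave 3 in GR3 and 13 in gefitinib-tolerant cells.

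**Figure D1:**
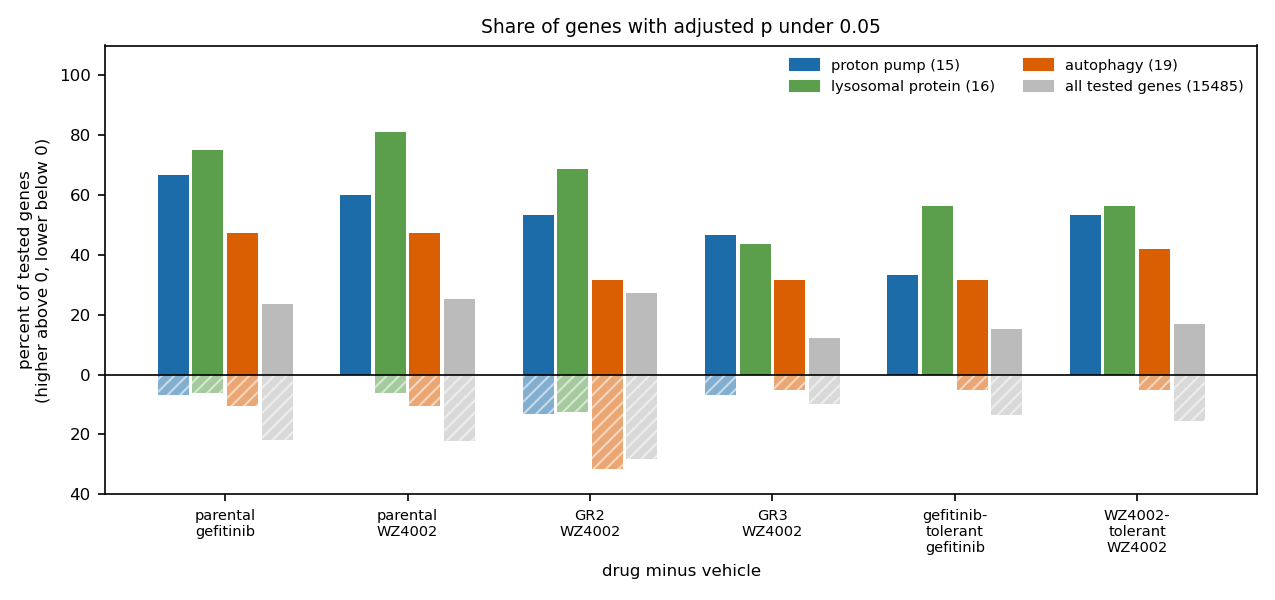
Bars give the percent of tested genes with an adjusted p under 0.05 in each drug and vehicle comparison, higher above 0 and lower (hatched) below 0, for the 15 proton pump, 16 lysosomal protein and 19 autophagy genes and for all 15485 tested genes. The bars of lysosomal protein genes that rose stand above the grey bar of all genes in all 6 comparisons, and for autophagy genes in GR2 the bar below 0 is as long as the bar above it.

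By role, the share of genes that rose was highest for lysosomal proteins in 5 of the 6 responses, and in GR3 for the pump. In parental cells 12 of 16 rose and 1 fell with gefitinib, and 13 rose and 1 fell with WZ4002. In GR2 11 rose and 2 fell, in GR3 7 rose, and in each tolerant population 9 rose. Of the 15 pump genes, 10, 9, 8, 7, 5 and 8 rose in parental gefitinib, parental WZ4002, GR2, GR3, gefitinib-tolerant and WZ4002-tolerant cells, in that order. Of the 19 autophagy genes, 9, 9, 6, 6, 6 and 8 rose in the same order, and in GR2 6 fell. The GR2 shares of autophagy genes, 6 of 19 in each direction, were near the 27.4% and 28.3% of all genes. That a gene passed in one response and not in another does not show that the responses differ, which is tested further below. Across the 6 responses, 13 members rose in every one, 3 of them pump genes, 6 lysosomal and 4 autophagy genes. Only ATG16L1 fell in every one, 12 members rose in none and 39 fell in none.

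**Figure D2:**
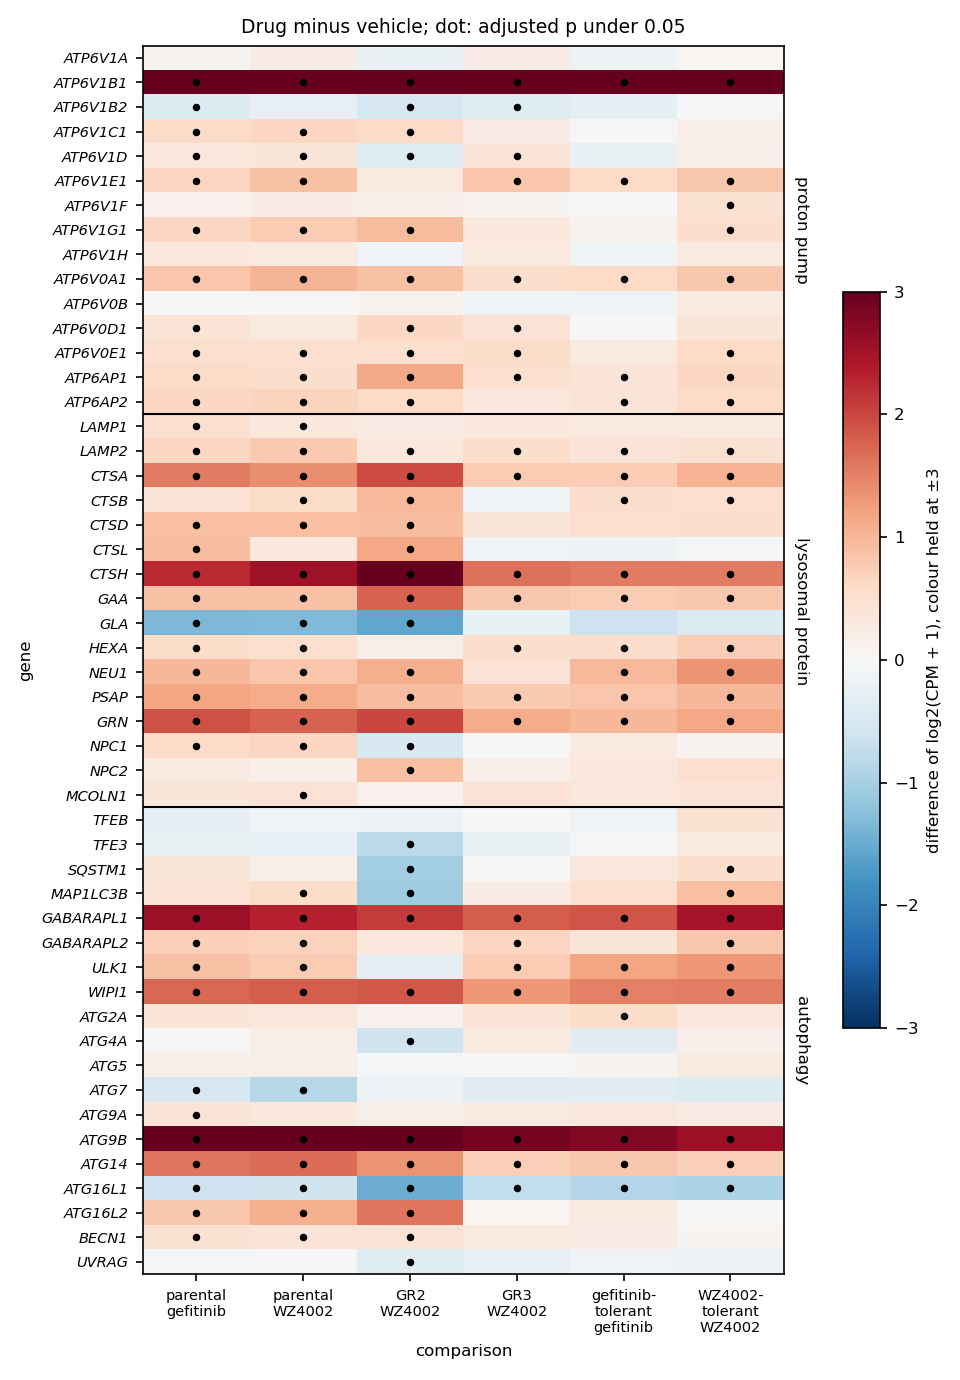
The heat map shows the difference of log2(CPM + 1) between drug and vehicle for the 50 members (rows, by role) in 6 comparisons (columns), with colour held at 3 in each direction and a dot where the adjusted p was under 0.05. Rows with dots in every column include ATP6V1B1, CTSH, GRN, GABARAPL1, WIPI1 and ATG9B (red) and ATG16L1 (blue), and the GR2 column is blue for MAP1LC3B and SQSTM1.

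Among the proton pump genes, ATP6V1B1 stood apart. It encodes the B1 isoform of ring subunit B, known for acid-secreting epithelium such as that of kidney and inner ear. With vehicle it lay at 0.72 and 2.43 CPM in parental, 0.14 and 0.43 in GR2, 0.75 and 2.62 in GR3, 0.48 and 0.5 in gefitinib-tolerant and 0.47 and 0.51 CPM in WZ4002-tolerant cells. With drug it lay at 146 and 114 CPM (gefitinib) and 100.1 and 199.95 CPM (WZ4002) in parental cells, 54.9 and 89.6 in GR2, 31.3 and 54.4 in GR3, 9.59 and 23.8 in gefitinib-tolerant and 19.3 and 7.69 CPM in WZ4002-tolerant cells. Every drug library was above every vehicle library, and the drug libraries of the tolerant populations were below those of the others. The differences were 5.74 (SE 0.50, adjusted p 1.08e-06) with gefitinib and 5.87 (SE 0.50, adjusted p 8.11e-07) with WZ4002 in parental cells, 5.80 in GR2, 4.07 in GR3, 3.44 in gefitinib-tolerant and 3.15 in WZ4002-tolerant cells. All 6 calls held in each fit that left out 1 library. The vehicle values rest on few reads, from 7 in GR2 replicate 1 to 103 in GR3 replicate 2, and adding 1 to the CPM makes the difference smaller than the ratio of the levels.

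ATP6V1B2, the isoform of the same subunit found in most cells, did not follow it. Its levels were 49.5 and 45.9 CPM in parental vehicle libraries, 36.4 and 34.3 with gefitinib and 40.4 and 39.1 with WZ4002. In GR2 it went from 44.9 and 47.8 to 33.9 and 30.8 CPM with WZ4002, and in GR3 from 58 and 49.1 to 42.1 and 40.3 CPM. The groups did not overlap in these comparisons. It fell by 0.42 (SE 0.11, adjusted p 0.0068) with gefitinib in parental cells, by 0.51 (SE 0.11, adjusted p 0.0013) in GR2 and by 0.36 (SE 0.11, adjusted p 0.0301) in GR3, and did not pass in the other 3 responses. Calls for ATP6V1B2 were lost in parental cells with gefitinib without vehicle replicate 1 (-0.37) or gefitinib replicate 2 (-0.38) and in GR3 without vehicle replicate 1 (-0.25), WZ4002 replicate 1 (-0.40) or WZ4002 replicate 2 (-0.33), and the other held.

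The other pump genes changed by less. ATP6V0A1, the a1 isoform of the V0 subunit that lines the proton path, and ATP6AP1, an accessory and assembly protein, rose in all 6 responses and are named for that after their values were seen. ATP6V0A1 lay at 24.8 and 30.3 CPM with vehicle, 45.1 and 54.6 with gefitinib and 51.2 and 62.4 with WZ4002 in parental cells. Drug libraries were above vehicle libraries. Its differences ran from 0.53 in GR3 to 1.02 in parental cells with WZ4002. Calls for ATP6V0A1 were lost in GR3 without vehicle replicate 1 (0.49) or WZ4002 replicate 2 (0.37) and in gefitinib-tolerant cells without vehicle replicate 1 (0.47) or gefitinib replicate 2 (0.49), and the other 4 held. ATP6AP1 went from 79.4 and 78.7 to 169 and 181 CPM with WZ4002 in GR2, again without overlap. Its differences ran from 0.39 in gefitinib-tolerant cells to 1.14 in GR2. Calls for ATP6AP1 were lost in parental cells with WZ4002 without vehicle replicate 1 (0.44), in GR3 without vehicle replicate 1 (0.38) or WZ4002 replicate 2 (0.36), in gefitinib-tolerant cells without vehicle replicate 1 (0.34), vehicle replicate 2 (0.44) or gefitinib replicate 2 (0.30) and in WZ4002-tolerant cells without vehicle replicate 1 (0.53), and the other 2 held. ATP6V1A, which carries the catalytic site, ATP6V1H, a regulatory subunit, and ATP6V0B, a proteolipid subunit, did not pass in any drug response. Of the 15 pump genes, 9 varied by less than 2-fold between their lowest and highest group means, these 3 among them.

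**Figure D3:**
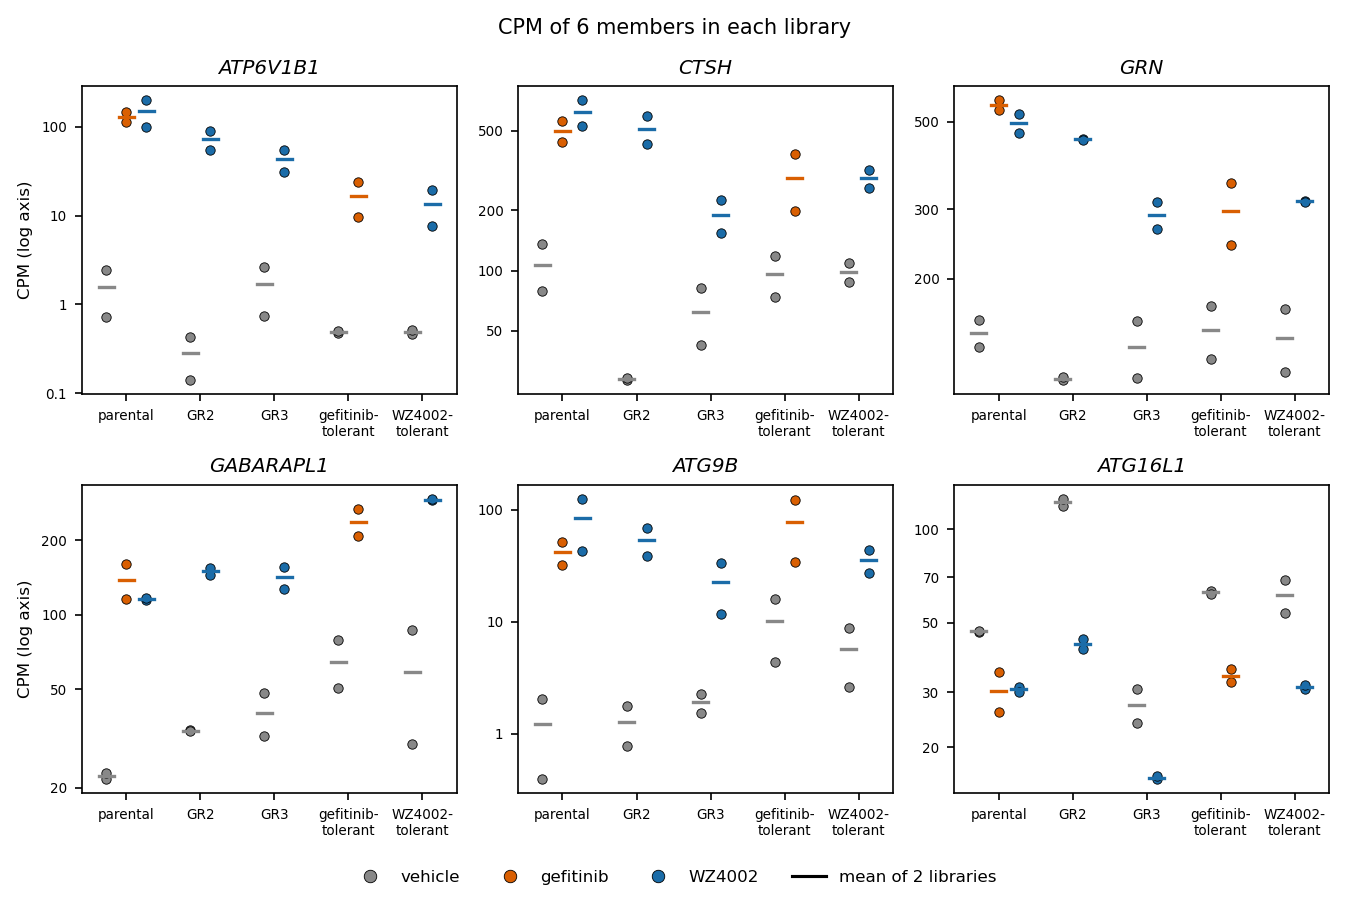
Each point is the CPM of 1 library on a log axis, with the mean of the 2 libraries as a bar, for 6 members in the 5 populations. In each population ATP6V1B1, CTSH, GRN, GABARAPL1 and ATG9B are higher in both drug libraries than in both vehicle libraries, and ATG16L1 is lower.

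Among lysosomal proteins, CTSH, a cysteine protease that acts on the amino end of proteins and is abundant in lung alveolar cells, rose most. Its parental levels were 78.9 and 135 CPM with vehicle, 439 and 556 with gefitinib and 526 and 710.5 with WZ4002. In GR2 it went from 28.3 and 28.9 to 426 and 589 CPM, in GR3 from 42.6 and 81.4 to 154 and 225 CPM, in gefitinib-tolerant cells from 73.6 and 118 to 198 and 383 CPM and in WZ4002-tolerant cells from 87.2 and 109 to 318 and 258 CPM. The drug and vehicle libraries did not overlap in any population. The difference was 4.08 (SE 0.36, adjusted p 2.29e-07) in GR2, 2.25 with gefitinib and 2.55 with WZ4002 in parental cells, 1.64 in GR3, 1.55 in gefitinib-tolerant and 1.55 in WZ4002-tolerant cells. Calls for CTSH were lost in GR3 without vehicle replicate 1 (1.19) or WZ4002 replicate 2 (1.37), in gefitinib-tolerant cells without vehicle replicate 1 (1.21) or gefitinib replicate 2 (1.08) and in WZ4002-tolerant cells without vehicle replicate 1 (1.39), and the other 3 held.

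GRN, the precursor of progranulin, which is cut into granulins in the lysosome, also rose in every population. In parental cells it lay at 135 and 157 CPM with vehicle, 567 and 534 with gefitinib and 467 and 524 with WZ4002. In GR2 it went from 111 and 113 to 452 and 449.8 CPM, in GR3 from 112 and 156 to 268 and 313 CPM, in gefitinib-tolerant cells from 125 and 171 to 243 and 350.3 CPM and in WZ4002-tolerant cells from 116 and 167 to 315 and 313 CPM. All drug libraries were above the vehicle libraries of their population. The difference ran from 0.99 in gefitinib-tolerant cells to 2.003 in GR2 (for GR2, SE 0.21, adjusted p 1.16e-06). The call for GRN was lost in gefitinib-tolerant cells without vehicle replicate 1 (0.77) or gefitinib replicate 2 (0.73), and the other 5 held.

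The members CTSA, GAA, PSAP and LAMP2 rose in all 6 responses too and are named for that after their values were seen. CTSA, a carboxypeptidase that also protects neuraminidase, lay at 91.7 and 98.4 CPM with vehicle, 273 and 287 with gefitinib and 265 and 240.2 with WZ4002 in parental cells, with no overlap of drug and vehicle. Its differences ran from 0.75 in GR3 to 1.95 in GR2. Calls for CTSA were lost in GR3 without vehicle replicate 1 (0.71) or WZ4002 replicate 2 (0.65) and in gefitinib-tolerant cells without vehicle replicate 1 (0.55) or gefitinib replicate 2 (0.42), and the other 4 held. GAA, the acid glucosidase that degrades glycogen, lay at 33.2 and 36.2 CPM with vehicle, 68.5 and 61.3 with gefitinib and 56.9 and 73.9 with WZ4002 in parental cells. The GAA differences ran from 0.76 in gefitinib-tolerant cells to 1.77 in GR2. Calls for GAA were lost in GR3 without vehicle replicate 1 (0.61) or WZ4002 replicate 2 (0.66), in gefitinib-tolerant cells without vehicle replicate 1 (0.54) or gefitinib replicate 2 (0.56) and in WZ4002-tolerant cells without vehicle replicate 1 (0.58), and the other 3 held.

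PSAP, the precursor of the saposins that help lipid hydrolases, lay at 731 and 763 CPM with vehicle, 1771 and 1599 with gefitinib and 1523 and 1715 with WZ4002 in parental cells. For PSAP they ran from 0.79 in GR3 to 1.17 in parental cells with gefitinib. Calls for PSAP were lost in GR3 without vehicle replicate 1 (0.48) or WZ4002 replicate 2 (0.66), in gefitinib-tolerant cells without vehicle replicate 1 (0.66) or gefitinib replicate 2 (0.52) and in WZ4002-tolerant cells without vehicle replicate 1 (0.78), and the other 3 held. LAMP2, a membrane glycoprotein of the lysosome, changed less, with differences from 0.31 in GR2 to 0.78 in parental cells with WZ4002. Calls for LAMP2 were lost in GR2 without vehicle replicate 2 (0.29) or WZ4002 replicate 1 (0.28) and in gefitinib-tolerant cells without vehicle replicate 1 (0.32) or gefitinib replicate 2 (0.29), and the other 4 held. LAMP1, the related membrane glycoprotein, whose promoter held the most E-boxes, lay at 346 and 371 CPM with vehicle, 485 and 511 with gefitinib and 464 and 427 with WZ4002 in parental cells and passed there alone. Its differences were 0.47 (SE 0.12, adjusted p 0.00429) with gefitinib and 0.31 (SE 0.12, adjusted p 0.0398) with WZ4002. The call for LAMP1 was lost in parental cells with WZ4002 whichever library was left out (0.25 to 0.37), and the other held.

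CTSD, the main aspartic protease of lysosomes, lay at 222 and 312 CPM with vehicle, 448 and 551 with gefitinib and 482 and 509.7 with WZ4002 in parental cells. It rose by 0.91 with gefitinib and 0.91 with WZ4002 there and by 0.93 in GR2, and did not pass in the other 3 responses. Calls for CTSD were lost in parental cells with gefitinib without vehicle replicate 1 (0.67) and in parental cells with WZ4002 without vehicle replicate 1 (0.67), and the other held. CTSL, a cysteine protease, passed in 2 of the 6 responses. It lay at 96.2 and 113 CPM with vehicle, 196 and 204 with gefitinib and 211 and 79.1 with WZ4002 in parental cells and went from 125 and 128 to 209 and 391 CPM with WZ4002 in GR2. In GR3 it lay at 36.2 and 33.1 CPM with vehicle and 32 and 32.8 CPM with WZ4002. The parental WZ4002 libraries were thus far apart, and the GR3 libraries low with and without drug. It rose by 0.93 (SE 0.32, adjusted p 0.0256) with gefitinib in parental cells and by 1.17 (SE 0.32, adjusted p 0.00546) in GR2 and did not pass elsewhere, and no difference of its response between populations passed (the lowest adjusted p was 0.0741, between GR3 and GR2). Calls for CTSL were lost in parental cells with gefitinib whichever library was left out (0.82 to 1.05) and in GR2 without WZ4002 replicate 2 (0.72). Reads of CTSL and of several pump genes could be shared with pseudogenes, since the handling of such reads is not given in the sources used here.

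GLA, the galactosidase that clears globotriaosyl lipids, was the lysosomal gene that fell most. It lay at 26.4 and 24.5 CPM with vehicle, 9.43 and 9.38 with gefitinib and 9.8 and 9.29 with WZ4002 in parental cells, and it went from 50.6 and 49.95 to 17.5 and 15.5 CPM with WZ4002 in GR2. The drug libraries were below all vehicle libraries of the same population. It fell by 1.34 (SE 0.24, adjusted p 0.000434) with gefitinib and 1.33 (SE 0.24, adjusted p 0.000445) with WZ4002 in parental cells and by 1.55 (SE 0.24, adjusted p 6.74e-05) in GR2. These calls held in each fit that left out 1 library. In GR3 it lay at 20.5 and 12.7 CPM with vehicle and 14.6 and 13.5 with WZ4002, where the groups overlap and the call did not pass.

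Among autophagy genes, GABARAPL1, which encodes an ATG8-family protein that is linked to the autophagosome membrane, rose in every population. In parental cells it lay at 21.6 and 22.9 CPM with vehicle, 160.1 and 116 with gefitinib and 114 and 117 with WZ4002. In GR2 it went from 34.1 and 34 to 154 and 145 CPM, in GR3 from 32.2 and 48.2 to 127 and 155 CPM, in gefitinib-tolerant cells from 50.4 and 78.9 to 208 and 267 CPM and in WZ4002-tolerant cells from 30.2 and 87 to 289.8 and 293 CPM. Every drug library was above every vehicle library, and the tolerant populations had the highest levels with drug. The difference ran from 1.81 in GR3 to 2.56 in parental cells with gefitinib, with SE 0.34, adjusted p 3.52e-05 for gefitinib in parental cells. All 6 calls held without any 1 library. GABARAPL1 has a near-identical copy, GABARAPL3, whose reads could be counted with it.

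ATG9B, one of the paired lipid scramblases that seed the autophagosome membrane, rose from a low level. In parental cells it lay at 0.39 and 2.02 CPM with vehicle, 32.1 and 51.4 with gefitinib and 42.5 and 125 with WZ4002. In GR2 it went from 1.75 and 0.77 to 68.6 and 39 CPM, in GR3 from 1.54 and 2.26 to 11.6 and 33.7 CPM, in gefitinib-tolerant cells from 4.32 and 15.9 to 34 and 121 CPM and in WZ4002-tolerant cells from 2.6 and 8.84 to 43.9 and 27 CPM. Drug and vehicle did not overlap within a population, but the 2 libraries of a group often differed by a large factor, and the lowest value rests on 14 reads. The difference ran from 2.57 in WZ4002-tolerant cells to 5.17 in parental cells with WZ4002, with SE 0.72, adjusted p 4.9e-05 for WZ4002 in parental cells. Calls for ATG9B were lost in GR3 without vehicle replicate 1 (2.68) or WZ4002 replicate 2 (2.13), in gefitinib-tolerant cells without vehicle replicate 1 (1.95) or gefitinib replicate 2 (1.88) and in WZ4002-tolerant cells without vehicle replicate 1 (1.85) or WZ4002 replicate 1 (2.23), and the other 3 held. ATG9B overlaps NOS3 on the other strand and whether reads were assigned by strand is not stated in the sources used here, so reads of the 2 genes could not be told apart. Its paralog ATG9A, found in most cells, lay at 51.2 and 49.1 CPM in parental vehicle libraries and at 64.2 and 68 CPM with gefitinib. ATG9A passed as higher in that drug response alone, and the call was lost whichever library was left out (0.35 to 0.43).

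WIPI1, which binds phosphoinositide on the forming membrane, and ATG14, which directs the lipid kinase complex to it, rose in all 6 responses. WIPI1 lay at 5.57 and 7.58 CPM with vehicle, 22.7 and 24.9 with gefitinib and 23.8 and 27 with WZ4002 in parental cells. The rise of WIPI1 ran from 1.30 in GR3 to 1.87 in GR2. The call for WIPI1 was lost in GR3 without vehicle replicate 1 (0.89) or WZ4002 replicate 2 (0.93), and the other 5 held. ATG14, named after its values were seen, lay at 16 and 16.9 CPM with vehicle, 56.4 and 47.7 with gefitinib and 47.9 and 62 with WZ4002 in parental cells. The rise of ATG14 ran from 0.72 in GR3 to 1.67 in parental cells with WZ4002. Calls for ATG14 were lost in GR3 without vehicle replicate 1 (0.66), WZ4002 replicate 1 (0.68) or WZ4002 replicate 2 (0.76), in gefitinib-tolerant cells without vehicle replicate 1 (0.51) or gefitinib replicate 2 (0.60) and in WZ4002-tolerant cells without vehicle replicate 1 (0.53) or WZ4002 replicate 1 (0.60), and the other 3 held. ULK1, the kinase that starts autophagy, passed as higher in 5 of the 6, by 0.87 and 0.77 in parental cells with gefitinib and WZ4002, 0.75 in GR3, 1.19 in gefitinib-tolerant and 1.30 in WZ4002-tolerant cells. Calls for ULK1 were lost in parental cells with gefitinib without vehicle replicate 2 (0.82) or gefitinib replicate 2 (0.86), in parental cells with WZ4002 without vehicle replicate 1 (0.83), vehicle replicate 2 (0.71) or WZ4002 replicate 2 (0.61), in GR3 without vehicle replicate 1 (0.58), WZ4002 replicate 1 (0.77) or WZ4002 replicate 2 (0.73) and in gefitinib-tolerant cells without vehicle replicate 1 (0.94) or gefitinib replicate 2 (0.82), and the other held. In GR2 it lay at 105 and 95.5 CPM with vehicle and 87.8 and 75.5 CPM with WZ4002 and did not pass, and its response there did not pass as different from that of parental cells (adjusted p 0.0916).

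ATG16L1, which positions the enzyme that links LC3 to lipid, was the 1 member that fell in all 6 responses. In parental cells it lay at 46.9 and 47.2 CPM with vehicle, 25.9 and 34.8 with gefitinib and 31.2 and 30.1 with WZ4002. In GR2 it went from 119 and 125 to 41.1 and 44.3 CPM, in GR3 from 30.8 and 23.9 to 15.8 and 16.2 CPM, in gefitinib-tolerant cells from 63.5 and 61.9 to 32.3 and 35.5 CPM and in WZ4002-tolerant cells from 68.7 and 54 to 30.6 and 31.7 CPM. No drug library reached a vehicle library of the same population. It fell by 1.49 (SE 0.15, adjusted p 8.19e-07) in GR2, by 0.63 and 0.60 in parental cells with gefitinib and WZ4002, by 0.73 in GR3, by 0.87 in gefitinib-tolerant and by 0.95 in WZ4002-tolerant cells. The call for ATG16L1 was lost in parental cells with gefitinib without gefitinib replicate 1 (-0.42), and the other 5 held. Its paralog ATG16L2 rose in 3 of the 6, by 0.81 and 1.06 in parental cells with gefitinib and WZ4002 and by 1.61 in GR2, where it went from 4.48 and 5.8 to 14.9 and 20.7 CPM. The call for ATG16L2 was lost in parental cells with gefitinib without vehicle replicate 1 (0.56) or gefitinib replicate 2 (0.71), and the other 2 held.

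TFEB and TFE3 transcripts passed as higher in no drug response. TFEB lay at 0.86 and 1.99 CPM with vehicle, 0.93 and 1.01 with gefitinib and 0.98 and 1.51 with WZ4002 in parental cells, on 22 to 222 reads over all 22 libraries, and did not pass in any of the 17 comparisons. TFE3 lay at 26.8 and 26.4 CPM with vehicle, 20.3 and 24.9 with gefitinib and 22.4 and 21.9 with WZ4002 in parental cells. It passed in a drug response in GR2 alone, where it went from 46.3 and 48 to 25.6 and 27 CPM, a fall of 0.82 (SE 0.13, adjusted p 0.000102) that held without any 1 library. In WZ4002-tolerant cells both drug libraries were above both vehicle libraries for TFEB (1.33 and 1.41 CPM with vehicle and 2.24 and 2.29 with WZ4002) and for TFE3 (21.9 and 26.5 CPM with vehicle and 28.7 and 30.2 with WZ4002), and neither passed. ATG7, the enzyme that activates the ATG8 family for lipid linkage, lay at 48.4 and 35.5 CPM with vehicle, 30.8 and 27.9 with gefitinib and 26.9 and 18.7 with WZ4002 in parental cells, a fall of 0.49 with gefitinib and 0.86 with WZ4002. The call for ATG7 was lost in parental cells with gefitinib without vehicle replicate 1 (-0.27), gefitinib replicate 1 (-0.56) or gefitinib replicate 2 (-0.42), and the other held. ATG5, which is joined to ATG12 in the linking enzyme, varied least of the 50, by 1.24-fold between its lowest and highest group mean, and passed in no drug response.

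The inhibitors were compared in parental cells, where dose and time were labelled alike. No member passed between WZ4002 and gefitinib, and neither did any gene (0% higher and 0% lower of 15485), while 525 genes and 0 members had an unadjusted p under 0.05 in limma. The member differences ran from -0.62 to 0.83 with a median of 0.03. The 95% interval of the difference lay within 1 on the log2 scale in each direction for 45 of the 50 members and reached beyond it for 5. Limma-voom also gave 0 members, and the fit without parental WZ4002 replicate 1 gave 1.

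The populations were also compared with vehicle alone, each derivative against the same parental vehicle libraries. In GR2, 8 members were higher and 5 lower than in parental cells, against 8.98% and 7.76% of all genes. MAP1LC3B, the LC3 protein that marks autophagosomes, lay at 77.4 and 65.3 CPM in GR2 and 28.4 and 24 CPM in parental cells, 1.41 higher (SE 0.21, adjusted p 0.000448). ATG16L1, at the levels given above, was 1.35 higher in GR2. NPC1, which exports cholesterol from the lysosome, lay at 82.5 and 72.7 CPM in GR2 and 34.1 and 30.8 CPM in parental cells, 1.23 higher (SE 0.13, adjusted p 2.23e-05). TFE3 was 0.80 higher. The groups did not overlap for any of the 4, and their calls held without any 1 library.

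SQSTM1, the receptor p62 that links ubiquitin to LC3, lay at 271 and 261 CPM in GR2 and 133 and 147 CPM in parental cells, 0.93 higher, and GLA was 0.96 higher. The SQSTM1 call was lost without GR2 vehicle replicate 1 (0.90). The GLA call was lost whichever library was left out (0.90 to 1.01). In the other direction GAA lay at 11.7 and 11.8 CPM in GR2 and 33.2 and 36.2 CPM in parental cells (-1.48, SE 0.20, adjusted p 0.000162), and ATG7 at 21.3 and 20.6 CPM in GR2 (-0.95). CTSH was lower by 1.82. NPC2, the soluble partner of NPC1, and ATP6V0D1, a V0 subunit that docks the V1 sector, were lower by 0.63 and 0.48. The GAA and ATG7 calls held without any 1 library. The CTSH call was lost without parental vehicle replicate 2 (-1.43). The NPC2 call was lost whichever library was left out (-0.75 to -0.52). The ATP6V0D1 call was lost whichever library was left out (-0.57 to -0.39). The 13 calls became 8 without parental vehicle replicate 2 and 7 without GR2 vehicle replicate 1.

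In GR3, 2 members were higher and 6 lower than in parental cells, against 9.77% and 11.1% of all genes, so the share of higher members was under the background. CTSB, a cysteine protease, lay at 126 and 117 CPM in GR3 and 50.5 and 48.8 CPM in parental cells, 1.27 higher (SE 0.18, adjusted p 0.000159). CTSL was lower by 1.56 (SE 0.32, adjusted p 0.00254), at the levels given above. ATG4A, a protease that trims the ATG8 family, lay at 7.33 and 7.85 CPM in GR3 and 12.9 and 17.2 CPM in parental cells (-0.89), and ATG16L1 was lower by 0.77. These groups did not overlap, and the calls held without any 1 library. CTSD was lower by 1.08, SQSTM1 0.85 higher and NEU1, the sialidase, lower by 0.81. The CTSD call was lost without parental vehicle replicate 2 (-0.84). The SQSTM1 call was lost without parental vehicle replicate 1 (0.79) or GR3 vehicle replicate 2 (0.62). The NEU1 call was lost without parental vehicle replicate 2 (-0.63) or GR3 vehicle replicate 1 (-0.58). A fit to the 2 groups alone gave 2 calls in place of 8.

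In gefitinib-tolerant cells 6 members were higher and 2 lower, against 9.39% and 9.64% of all genes, and in WZ4002-tolerant cells 5 were higher and 1 lower, against 8.72% and 9.73%. ATP6V1D, a subunit of the central shaft of the pump, lay at 65.2 and 66.5 CPM in gefitinib-tolerant, 58.4 and 64.7 in WZ4002-tolerant and 37.5 and 37.4 CPM in parental cells. It was higher by 0.80 (SE 0.12, adjusted p 0.000356) and 0.70 (SE 0.12, adjusted p 0.00102), with no overlap, and these were the only calls of the 2 comparisons that held without any 1 library. GABARAPL1 was 1.46 higher in gefitinib-tolerant and 1.17 higher in WZ4002-tolerant cells. Calls for GABARAPL1 were lost in gefitinib-tolerant cells without parental vehicle replicate 1 (1.42) or gefitinib-tolerant vehicle replicate 2 (1.14) and in WZ4002-tolerant cells without parental vehicle replicate 1 (1.13), parental vehicle replicate 2 (1.21) or WZ4002-tolerant vehicle replicate 2 (0.42). ATG9B was 2.21 higher in gefitinib-tolerant cells. The ATG9B call was lost without parental vehicle replicate 1 (1.65), parental vehicle replicate 2 (2.77) or gefitinib-tolerant vehicle replicate 2 (1.38). ATP6V1E1, a subunit of the stalks of the pump, was 0.53 higher in gefitinib-tolerant and 0.53 higher in WZ4002-tolerant cells. Calls for ATP6V1E1 were lost in gefitinib-tolerant cells whichever library was left out (0.47 to 0.59) and in WZ4002-tolerant cells whichever library was left out (0.41 to 0.65). CTSD and NPC2 were lower in gefitinib-tolerant cells, and NPC2 in WZ4002-tolerant cells. The CTSD call was lost without parental vehicle replicate 2 (-0.46) or either gefitinib-tolerant vehicle library (-0.60 and -0.81). The NPC2 call in gefitinib-tolerant cells was lost without either parental vehicle library (-0.71 and -0.48) or gefitinib-tolerant vehicle replicate 1 (-0.40). In WZ4002-tolerant cells it was lost whichever library was left out (-0.681 to -0.455). Of the 8 calls in gefitinib-tolerant cells, 2 remained without parental vehicle replicate 1, 3 without parental vehicle replicate 2, 4 without gefitinib-tolerant vehicle replicate 1 and 2 without replicate 2 of those cells. Of the 6 calls in WZ4002-tolerant cells, 1 remained without parental vehicle replicate 1, 2 without parental vehicle replicate 2, 3 without WZ4002-tolerant vehicle replicate 1 and 1 without replicate 2 of those cells.

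**Figure D4:**
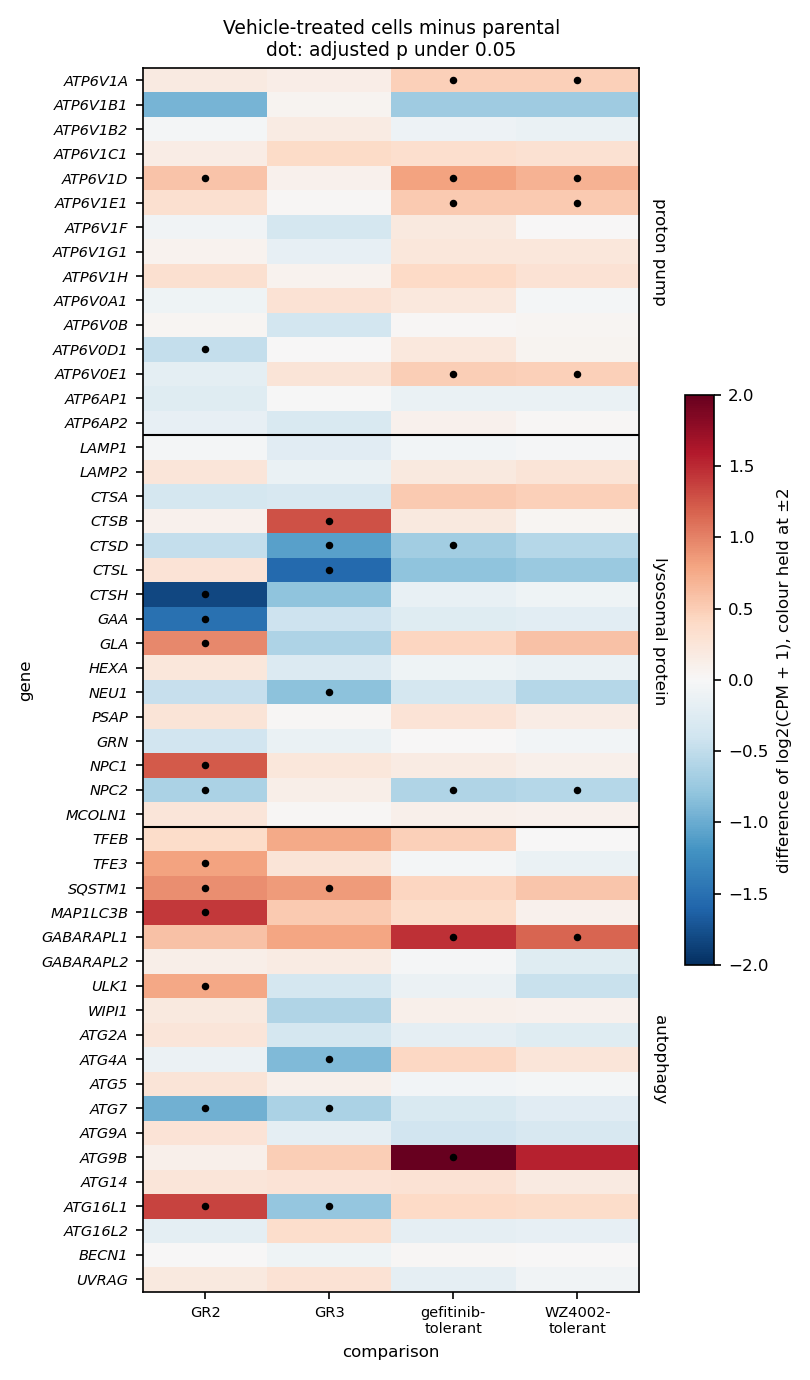
The heat map shows the difference of log2(CPM + 1) between each vehicle-treated derivative and parental vehicle cells for the 50 members (rows, by role), with colour held at 2 in each direction and a dot where the adjusted p was under 0.05. Dots mark MAP1LC3B, NPC1, ATG16L1 and GAA in GR2, CTSB, CTSL and ATG16L1 in GR3, and ATP6V1D in GR2 and both tolerant populations.

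GR3 and GR2 were also compared directly with vehicle, where 6 members were higher and 15 lower in GR3, against 15.6% and 17.5% of all genes. ATG16L1 differed most, at 30.8 and 23.9 CPM in GR3 and 119 and 125 CPM in GR2 (-2.13, SE 0.15, adjusted p 6.81e-08). CTSL (-1.84), GLA (-1.58), ULK1 (-1.13) and NPC1 (-1.005) were lower in GR3 too. CTSB (1.18), GAA (1.06) and NPC2 (0.75) were higher in GR3. Calls of these 8 genes held without any 1 library. CTSH, ATP6V0D1 and ATP6V0E1 passed as higher in GR3 too. The CTSH call was lost without GR2 vehicle replicate 1 (1.002), GR2 vehicle replicate 2 (1.03) or GR3 vehicle replicate 2 (0.56). The ATP6V0D1 call was lost without the same libraries (0.45, 0.51 and 0.30). The ATP6V0E1 call was lost whichever library was left out (0.43 to 0.47). The count of 21 became 11 without GR2 vehicle replicate 1 and 13 in a fit to the 2 groups alone.

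Whether a response to drug differed between populations was tested as a difference of differences. Between GR2 and parental cells, the signed response to WZ4002 was higher in GR2 for 0 members and lower for 6, against 3.34% and 3.45% of all genes. MAP1LC3B moved in opposite directions, from 77.4 and 65.3 to 33.9 and 32.8 CPM in GR2 and from 28.4 and 24 to 40.3 and 37.3 CPM in parental cells. Drug and vehicle did not overlap in either. The responses were -1.07 (SE 0.21, adjusted p 0.000536) in GR2 and 0.55 (SE 0.21, adjusted p 0.0414) in parental cells, and they differed by -1.62 (SE 0.30, adjusted p 0.00501). The call for MAP1LC3B was lost in parental cells with WZ4002 whichever library was left out (0.44 to 0.67), and the other held. In WZ4002-tolerant cells MAP1LC3B passed as higher with WZ4002, from 23 and 33.8 to 48.05 and 59.4 CPM. That call was lost without vehicle replicate 1 of those cells (0.64). MAP1LC3B shares near-identical sequence with MAP1LC3B2. NPC1 went from 82.5 and 72.7 to 59 and 53 CPM in GR2 and from 34.1 and 30.8 to 53.9 and 48 CPM in parental cells, responses that differed by -1.10 (SE 0.19, adjusted p 0.0031). Both differences of responses held without any 1 library.

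SQSTM1 went from 271 and 261 to 159 and 105 CPM in GR2 and from 133 and 147 to 148 and 168 CPM in parental cells, responses that differed by -1.21 (SE 0.28, adjusted p 0.0173). In WZ4002-tolerant cells SQSTM1 passed as higher with WZ4002, from 171 and 247 to 301 and 295 CPM. That call was lost without vehicle replicate 1 (0.27), WZ4002 replicate 1 (0.52) or WZ4002 replicate 2 (0.55) of those cells. ATP6V1D went from 57.7 and 54.1 to 42.1 and 43.2 CPM in GR2 and from 37.5 and 37.4 to 46.3 and 51.6 CPM in parental cells, responses that differed by -0.75 (SE 0.17, adjusted p 0.0148). In both genes the GR2 vehicle libraries stood above the parental ones. The SQSTM1 difference was lost without parental vehicle replicate 1 (-1.14), parental WZ4002 replicate 2 (-1.12), GR2 vehicle replicate 1 (-1.19), GR2 vehicle replicate 2 (-1.24) or GR2 WZ4002 replicate 2 (-0.91), and that of ATP6V1D without GR2 vehicle replicate 1 (-0.71). ATG16L1 (-0.89) and ATG4A (-0.79) were the other 2, and both fell in GR2 with WZ4002. The ATG16L1 difference was lost without parental vehicle replicate 1 (-0.88), parental vehicle replicate 2 (-0.89), GR2 vehicle replicate 1 (-0.92), GR2 vehicle replicate 2 (-0.85) or GR2 WZ4002 replicate 1 (-0.84). The ATG4A difference was lost without parental vehicle replicate 1 (-0.59), parental WZ4002 replicate 1 (-0.58), GR2 vehicle replicate 1 (-0.79), GR2 vehicle replicate 2 (-0.78), GR2 WZ4002 replicate 1 (-0.75) or GR2 WZ4002 replicate 2 (-0.83). The count of 6 became 2 without GR2 vehicle replicate 1 and 3 without parental vehicle replicate 1 or GR2 vehicle replicate 2.

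**Figure D5:**
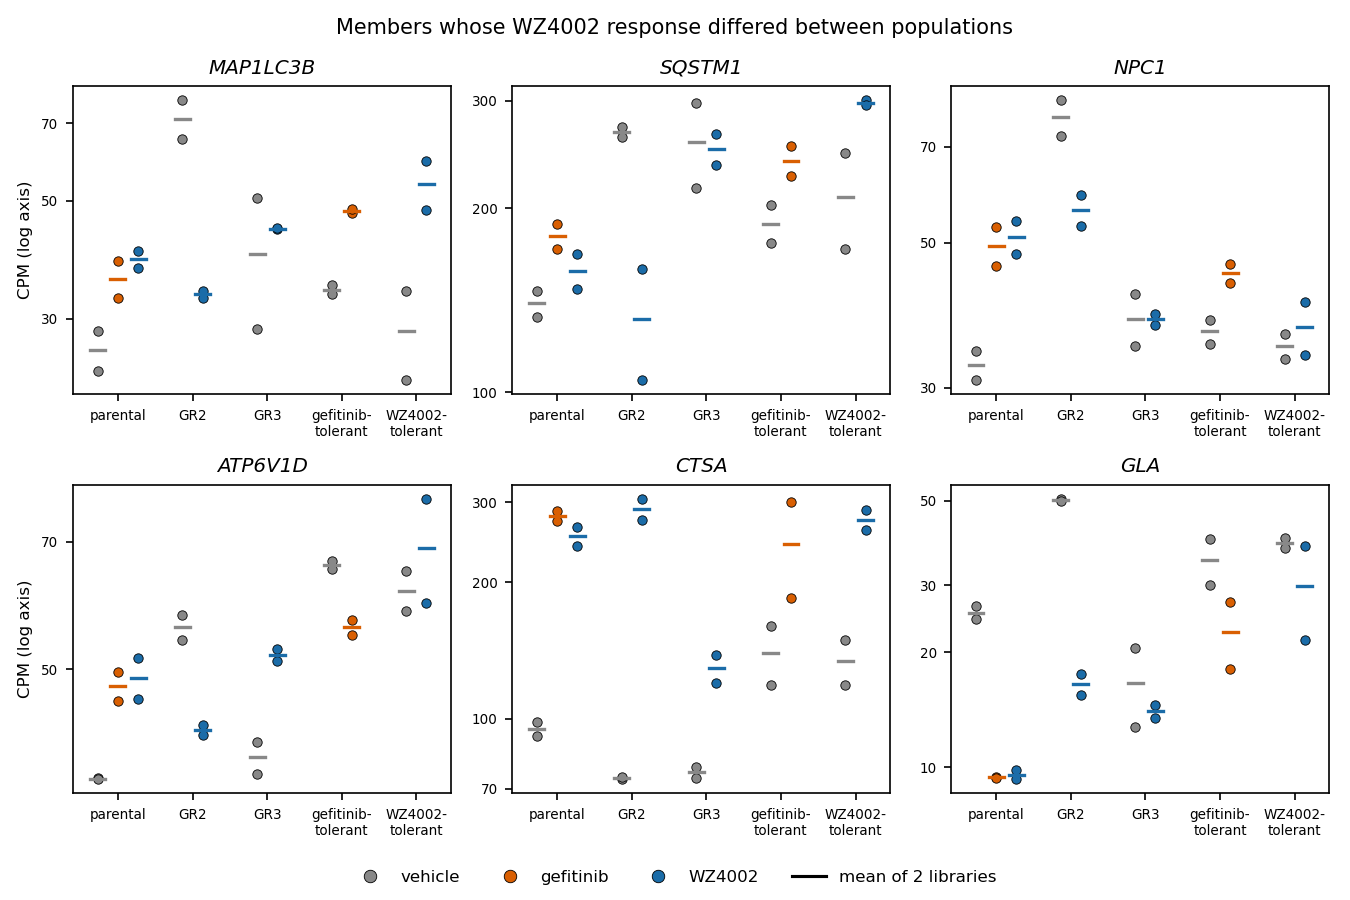
Each point is the CPM of 1 library on a log axis, with the mean of the 2 libraries as a bar, for 6 members in the 5 populations. In GR2, MAP1LC3B, SQSTM1, NPC1 and ATP6V1D are lower in both WZ4002 libraries than in both vehicle libraries, while in parental cells they are higher in both.

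Between GR3 and GR2, the signed response to WZ4002 was higher in GR3 for 6 members and lower for 6, against 6.78% and 6.8% of all genes. CTSH responded less in GR3 (-2.44, SE 0.50, adjusted p 0.00477), as did ATG16L2 (-1.54, SE 0.33, adjusted p 0.00584) and CTSA (-1.20, SE 0.27, adjusted p 0.00755). CTSA went from 73.5 and 74.3 to 274 and 305 CPM in GR2 and from 74.1 and 78.3 to 119.9 and 138 CPM in GR3, so the vehicle levels lay close and the WZ4002 levels apart. ATG16L2 lay at 8.64 and 7.29 CPM with vehicle and 7.38 and 9.5 CPM with WZ4002 in GR3. ATP6V1D, which fell in GR2, went from 41.3 and 38 to 51.1 and 52.8 CPM in GR3, and the responses differed by 0.76 (SE 0.17, adjusted p 0.00785). These 4 calls held without any 1 library. The count of 12 became 4, 6 and 7 without GR2 vehicle replicate 1, GR2 vehicle replicate 2 and GR2 WZ4002 replicate 2.

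Between GR3 and parental cells no member passed for the response to WZ4002, against 0.633% and 0.659% of all genes, and 11 members had an unadjusted p under 0.05, 1 of them higher. Limma-voom also gave 0, and fits without GR3 vehicle replicate 1 and parental WZ4002 replicate 1 gave 3 and 2. Between gefitinib-tolerant and parental cells no member passed for the response to gefitinib, against 1.07% and 0.936% of all genes, with 9 at an unadjusted p under 0.05, 8 of them lower. Limma-voom gave 0 there too, and the fit to the 4 groups alone gave 1, as did the fits without parental vehicle replicate 2 and without gefitinib-tolerant gefitinib replicate 2. Between WZ4002-tolerant and parental cells 0 members responded more and 1 less to WZ4002, against 2.1% and 2.4% of all genes. The 1 member was ATP6V1B1 (-2.72, SE 0.70, adjusted p 0.0382), whose levels are given above. It was lost with a pseudocount of 0.1, with no filter, in a fit to the 4 groups alone and in limma-voom. It was also lost without parental vehicle replicate 1 (-2.22), parental WZ4002 replicate 2 (-2.22), WZ4002-tolerant vehicle replicate 1 (-2.74), WZ4002-tolerant vehicle replicate 2 (-2.70) or WZ4002-tolerant WZ4002 replicate 2 (-2.11). These comparisons share the parental vehicle libraries.

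Of 116 other genes of these pathways, listed by function, 110 were tested. Among 48 further lysosomal genes, 24 rose and 3 fell with gefitinib and 25 rose and 3 fell with WZ4002 in parental cells, 29 rose and 6 fell in GR2, 18 rose in GR3, 19 rose and 2 fell in gefitinib-tolerant and 26 rose and 2 fell in WZ4002-tolerant cells. Of all tested genes, 23.5%, 25.1%, 27.4%, 12.1%, 15.2% and 17% rose in this order of comparisons. The shares of all tested genes that fell were 21.8%, 22.3%, 28.3%, 9.87%, 13.6% and 15.6%. ASAH1, the acid ceramidase, rose in every response, with differences from 1.22 in gefitinib-tolerant cells to 2.42 in GR2, and all 6 calls held without any 1 library. Among 34 further autophagy genes, 17, 15, 9, 9, 9 and 11 rose in the same order of comparisons and 0, 1, 4, 1, 2 and 0 fell, of which the 9 that rose in GR2 were near the 27.4% of all genes. OPTN, an autophagy receptor for ubiquitin, rose in every response, with differences from 0.94 in gefitinib-tolerant cells to 2.30 in GR2. Calls for OPTN were lost in GR3 without vehicle replicate 1 (0.83) or WZ4002 replicate 2 (1.14) and in gefitinib-tolerant cells whichever library was left out (0.89 to 0.99), and the other 4 held. Among 20 genes of the MiT factors and mTORC1, 8, 7, 5, 4, 2 and 6 rose and 2, 4, 3, 0, 3 and 3 fell. Of these, the 5 that rose in GR2 and the 2 that rose in gefitinib-tolerant cells were under the 27.4% and 15.2% of all genes. The 4 that fell with WZ4002 in parental cells were near the 22.3% of all genes. The 3 that fell in each tolerant population were near the 13.6% and 15.6%. RRAGB, a GTPase that recruits mTORC1 to the lysosome, rose in every response too, with differences from 0.77 in GR3 to 1.38 in parental cells with WZ4002. Calls for RRAGB were lost in GR3 without vehicle replicate 1 (0.57) or WZ4002 replicate 2 (0.67) and in gefitinib-tolerant cells without vehicle replicate 1 (0.80) or gefitinib replicate 2 (0.76), and the other 4 held. ASAH1, OPTN, RRAGB and ATP6V0A4, described next, were chosen after their values were seen.

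Of 8 further pump genes, 4 rose and 1 fell with each inhibitor in parental cells. In GR2 3 rose and 2 fell, and in GR3 2 rose and 0 fell. In gefitinib-tolerant cells 1 rose and 1 fell, and in WZ4002-tolerant cells 0 rose and 1 fell. The rises in the tolerant populations were under the 15.2% and 17% of all genes. ATP6V0A4, the a4 isoform of the V0 sector that is known, like ATP6V1B1, for acid-secreting epithelium, lay at 3.85 and 3.27 CPM with vehicle, 33.5 and 21.9 with gefitinib and 27.2 and 24.2 with WZ4002 in parental cells. It went from 1.61 and 1.81 to 37.3 and 37.1 CPM in GR2 and from 2.75 and 3.3 to 16.1 and 8.6 CPM in GR3, without overlap. In gefitinib-tolerant cells it lay at 4.47 and 5.73 CPM with vehicle and 5.01 and 6.41 CPM with gefitinib, and in WZ4002-tolerant cells at 5.15 and 4.5 CPM with vehicle and 8.08 and 5.31 CPM with WZ4002, and it passed in neither. It rose by 2.63 with gefitinib and 2.55 with WZ4002 in parental cells, 3.82 in GR2 and 1.67 in GR3. The response differed from that of parental cells by -2.49 in gefitinib-tolerant cells (SE 0.36, adjusted p 0.00265) and by -2.17 in WZ4002-tolerant cells (SE 0.36, adjusted p 0.00351), and that of GR3 from GR2 by -2.15 (SE 0.36, adjusted p 0.0011). These calls held without any 1 library. The difference between GR2 and parental cells was 1.27 (SE 0.36, adjusted p 0.0436), lost whichever library was left out (1.18 to 1.36).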

How the data were processed

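Polyadenylated RNA of 22 PC9-derived libraries (11 groups of 2) was measured. The authors deposited gene levels as CPM (read counts scaled to library size) in 1 table of 17165 genes, and per the submitters' processing notes reads were aligned with STAR to build hg19 and counted with HTSeq. The kit was directional per the labels' protocols, and whether counting used strand is not given in the sources used here. Depth was estimated from the step between CPM values, of which at least 99.99% came out whole within 0.005 CPM. By chance, 23.6% to 49.6% would. A step and its mirror on the 0.01 grid cannot be told apart, and the larger was kept. The depths and the reads given for single genes may therefore be too low.

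Genes with at least 1 CPM in at least 2 libraries were kept (15485, with 1680 left out). On log2(CPM + 1), limma 3.58.1 in R 4.3.3 was fitted with a trend over all 11 groups (11 residual degrees of freedom), and 17 comparisons were tested with Benjamini-Hochberg adjustment over all kept genes at 0.05. A fold change on this scale understates that of low genes. The code was tested on simulated data. The rule for named genes took up to 5 called members in each direction per comparison, by size of difference, and let the paralogs of ATP6V1B1, ATG9B and ATG16L1, and TFEB, TFE3, SQSTM1, MAP1LC3B, LAMP1, CTSD and GRN, be named anywhere. The members and lists were chosen with earlier results of these data known. The fits were repeated without each library, with a replicate block, on the compared groups alone, with median-of-ratios scaling, without the filter, with 0.1 as pseudocount and with limma-voom on recovered reads. Promoters came from RefSeq (GRCh38.p14), which is not the build of the alignment.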

Additional observations from a re-analysis of the deposited data

Results flagged for a closer look

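The results below are differences of drug response between populations that passed the limma threshold, and no explanation for any was weighed. Between GR2 and parental cells, the response to WZ4002 differed by -1.62 for MAP1LC3B, -1.21 for SQSTM1, -1.10 for NPC1, -0.89 for ATG16L1, -0.79 for ATG4A and -0.75 for ATP6V1D. Of these 6, MAP1LC3B and NPC1 held without any 1 library. ATP6V0A4, no member of the list, differed by 1.27 there and was lost whichever library was left out (1.18 to 1.36).

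Between GR3 and GR2, the response to WZ4002 was smaller in GR3 for CTSH (-2.44), ATG16L2 (-1.54), CTSA (-1.20), CTSB (-1.07), GAA (-0.96) and ATP6AP1 (-0.66). The difference was positive for GLA (1.36), MAP1LC3B (1.28), SQSTM1 (1.02), ATG4A (0.88), ATP6V1D (0.76) and ATG16L1 (0.76), genes whose response in GR2 was a fall. Of these 12, ATP6V1D, CTSA, CTSH and ATG16L2 held without any 1 library. ATP6V0A4 differed by -2.15, which held too.

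Against parental cells, ATP6V0A4 responded less in gefitinib-tolerant (-2.49) and WZ4002-tolerant cells (-2.17), and ATP6V1B1 responded less in WZ4002-tolerant cells (-2.72). The ATP6V1B1 difference was lost without parental vehicle replicate 1 (-2.22), parental WZ4002 replicate 2 (-2.22), WZ4002-tolerant vehicle replicate 1 (-2.74), WZ4002-tolerant vehicle replicate 2 (-2.70) or WZ4002-tolerant WZ4002 replicate 2 (-2.11), while both of ATP6V0A4 held.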

How the results depend on the processing

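Of the 188 single-gene differences printed, none of those called changed sign under any alternative run. The call was lost for 31 in a fit to the groups of the comparison alone, 6 in limma-voom on recovered reads (added after the data were seen), 5 with no filter, 1 with a pseudocount of 0.1, 1 under median-of-ratios scaling, and in 196 of 844 fits that left out 1 library, where the lone library of a group is assumed to vary like the others. With 1 library left out, the number of members called ran from 7 to 25 for WZ4002 in GR3, from 4 to 23 for gefitinib in gefitinib-tolerant cells, from 14 to 26 for WZ4002 in WZ4002-tolerant cells and from 0 to 1 between the inhibitors. Against parental vehicle it ran from 7 to 9 in GR2, from 2 to 4 in gefitinib-tolerant and from 1 to 4 in WZ4002-tolerant cells, and for GR3 against GR2 vehicle from 11 to 18. For differences of response it ran from 2 to 7 (GR2 against parental), 0 to 3 (GR3 against parental), 4 to 16 (GR3 against GR2), 0 to 1 (gefitinib-tolerant) and 0 to 3 (WZ4002-tolerant). Fits to the compared groups alone gave 3 for WZ4002 in GR3, 13 for gefitinib in gefitinib-tolerant cells, 2 for GR3 against parental vehicle, 13 for GR3 against GR2 vehicle, 1 for the gefitinib-tolerant difference and 0 for the WZ4002-tolerant difference, which was also 0 with a pseudocount of 0.1, with no filter and in limma-voom. The cause of these changes was not tested. Same-numbered libraries were not shown to be paired. The correlation of same-numbered deviations over 55 pairs of groups ran from -0.46 to 0.63 with 20 over 0.1. That range does not settle whether some groups share a pairing. With the replicate number as a block, 10 members were called in place of 6 for the difference between GR2 and parental cells, 1 in place of 0 for gefitinib-tolerant and 2 in place of 1 for WZ4002-tolerant cells, and no other count moved by over 1.5 times. The table holds CPM and not counts, and the reads recovered from it are estimates. The planned quasi-likelihood count test was not run, and limma-voom on the recovered reads was added instead. Depth limits ATP6V1B1, ATG9B and TFEB, whose lowest values rest on 7, 14 and 22 reads.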
